A study of Homo sapiens with 2 samples.

Results

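The miR-10, miR-99/100 and miR-125 guide strands were followed in the small RNA that came down with the long noncoding RNA UCA1 in a human breast cancer cell line. The 7 members are hsa-miR-10a-5p, hsa-miR-10b-5p, hsa-miR-99a-5p, hsa-miR-99b-5p, hsa-miR-100-5p, hsa-miR-125a-5p and hsa-miR-125b-5p (the species prefix is left out hereafter), chosen by family name, with earlier results of these data known, of 2588 mature miRNA names in the files. MDA231 (MDA-MB-231) is an invasive breast cancer line. MDA231-UCA1-MS2 cells expressed UCA1 carrying MS2 hairpins, and MDA231-Con cells were the control, which a heading in the supplement of the study calls MS2 and whose construct is not described further in the sources used here. Both lysates were incubated for 5 h at 4°C with MBP-MCP, a maltose-binding and MS2 coat fusion protein on amylose resin, and the bound RNA was eluted with 20 mM maltose. There was 1 library per condition, so the sequencing holds no replicate check of any difference. No test between the conditions was run, and every interval given covers counting error only.

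Mature miRNAs are loaded into Argonaute proteins and pair with target RNAs mainly through their seed, bases 2 to 8 from the 5′ end. The miR-10 genes lie inside HOX gene clusters and are co-expressed with HOX genes, and miR-10b is known for its part in the invasion of breast cancer cells. The miR-99/100 miRNAs are relatives of miR-10 whose seed differs, with MTOR among their known targets. They are transcribed in clusters together with a let-7 and a miR-125 gene, and miR-125, a relative of lin-4 of worms, is known to repress LIN28.

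The table of RefSeq sequences used here (GRCh38.p14) matched 6 of the 7 members, all but miR-10b-5p, and these are shown because the members that parted in the pulldowns are nearly the same molecule. Capitals mark the seed.
miR-10a-5p: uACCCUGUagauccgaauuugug
miR-99a-5p: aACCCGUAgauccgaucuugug
miR-100-5p: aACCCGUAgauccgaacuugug
miR-99b-5p: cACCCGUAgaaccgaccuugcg
miR-125a-5p: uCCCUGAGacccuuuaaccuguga
miR-125b-5p: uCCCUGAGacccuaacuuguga
miR-99a-5p, miR-99b-5p and miR-100-5p shared 1 seed, and miR-125a-5p and miR-125b-5p shared another. Counted from the 5′ end, miR-99a-5p and miR-100-5p differed by 1 base, U16A with miR-99a-5p as the reference, outside the seed. From miR-99a-5p to miR-99b-5p there were 4 differences, A1C, U11A, U16C and U21C. The 2 miR-125 sequences were the same over their first 13 bases. The counting rule for reads that suit more than 1 of these relatives is not given in the sources used here, so the split between miR-99a-5p and miR-100-5p, and between miR-10a-5p and miR-10b-5p, is uncertain to that extent.

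The genes of the members lie at 5 places in GRCh38. MIR10A is on the minus strand of chromosome 17 from 48579838 to 48579947, in introns of HOXB3 and overlapping an exon of some HOXB4 transcripts. MIR10B is on the plus strand of chromosome 2, inside HOXD3. MIR99B (chromosome 19, 51692612 to 51692681), MIRLET7E and MIR125A (51693254 to 51693339) follow each other on the plus strand in introns of SPACA6, with gaps of 104 and 389 bases, and the antisense gene SPACA6P-AS covers them on the other strand. MIR100 (chromosome 11, 122152229 to 122152308), MIRLET7A2 and MIR125B1 (122099757 to 122099844) lie on the minus strand in introns of the noncoding host gene MIR100HG. MIR99A (chromosome 21, 16539089 to 16539169), MIRLET7C and MIR125B2 (16590237 to 16590325) lie on the plus strand in introns of the host gene MIR99AHG. The miR-125b-5p sequence is the same from both of its genes, and its reads cannot be divided between chromosomes 11 and 21.

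The miRNA counts summed to 20037 in the UCA1-MS2 library and to 72579 in the control library. Values are given on 2 scales, the share of all miRNA counts and the deposited RPM. RPM scales each count to a library total, here 12405522 and 12912336 reads, and the miRNA counts made up 0.162% and 0.562% of these totals. No count between 0 and 10 was listed. A miRNA listed at 0 could thus have had up to 9 counts, a share of up to 0.0449% in the UCA1-MS2 library and 0.0124% in the control library. Of the miRNAs fixed as abundant in MDA-MB-231 cells (miR-21-5p, miR-221-3p, miR-222-3p and miR-29a-3p), 4 of 4 were listed in both libraries, with 26.9% and 16.7% of the miRNA counts but 434.4 and 936.9 RPM, so that the direction of this list depended on the scale. Of these, miR-222-3p was lower in share in the UCA1-MS2 library, at a ratio of 0.544 (0.437 to 0.671). Markers of other cell types were also listed. The epithelial list had 2 of 6 miRNAs listed and a summed share of 0.564% (9.11 RPM) in the UCA1-MS2 library, against 1 of 6 and 0.0289% (1.63 RPM) in the control library. The liver marker miR-122-5p had 488 and 0 counts, the muscle list (1 of 3 and 0 of 3 listed) 10 and 0 counts. In the paper, RT-qPCR of pulldown material found this liver miRNA bound to UCA1. The paper also reports that mutating its putative binding site reduced the association in a kidney cell line. The paper's list of miRNAs associated with UCA1 also holds the muscle miRNA and an epithelial miRNA counted here. Whether the counts of these miRNAs came from other cell types was not tested. The erythroid list had 1 of 3 listed in each, miR-486-5p, at 0.105% and 0.0744%, a ratio of 1.41 whose interval, 0.808 to 2.37, included 1, and at 1.69 and 4.18 RPM. The part of all these markers in the values below was not tested.

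The 7 members together held a far smaller part of the miRNA pool in the UCA1-MS2 library than in the control library. They had 1483 counts, 7.40% of the miRNA counts (95% Wilson interval 7.05 to 7.77%), against 22899 counts, 31.6% (31.2 to 31.9%). The summed share was 4.26-fold lower (exact 95% interval 4.04 to 4.50), and the summed RPM, 119.5 against 1773, was 14.8-fold lower (14.1 to 15.6). Relative to the counts of all other miRNAs, a ratio that does not depend on the total used, the members were 5.77-fold lower (5.46 to 6.10). This sum rests on miR-100-5p: without it, the other 6 members made up 2.67% of the miRNA counts (2.45 to 2.897%) in the UCA1-MS2 library and 2.52% (2.41 to 2.64%) in the control library, while their summed RPM was 3.30-fold lower. miR-7641 alone held 19.9% of the miRNA counts in the UCA1-MS2 library and 0.424% in the control library. It thus lowers every other share more in the UCA1-MS2 library, and shares without it were not computed.

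The members did not move together. miR-100-5p, miR-99b-5p, miR-125a-5p and miR-125b-5p were lower in the UCA1-MS2 library on both scales, whereas miR-10b-5p was higher on both. At a change of at least 2-fold in the share, with 9 counts in place of a listed 0, 4 of the 7 members were lower, against 12.6% of the 151 miRNAs with counts, and 2 of 7, miR-10b-5p and miR-99a-5p, were higher, against 39.7%. Counting a limit only in the direction it bounds lowered the background of higher miRNAs to 27.8% and changed no member. The background of lower miRNAs rests on the value for a listed 0. With 5 counts for a listed 0, 32 of the 151 were lower, and with 0.5 counts added 67 were. In both settings 4 members were lower. On the RPM scale, 4 of 7 were lower against 57.0% of the 151, a share near the background, and 1 of 7 was higher against 7.28%. The median log2 ratio of the members was -1.73 on the share scale and -3.53 on the RPM scale, beside 0.58 and -1.22 for all 151 miRNAs. On the share scale, the median of all 151 was 0.18 with 5 counts for a listed 0 and -0.56 with 0.5 counts added. Its sign thus depended on the value used for a listed 0.

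**Figure D1:**
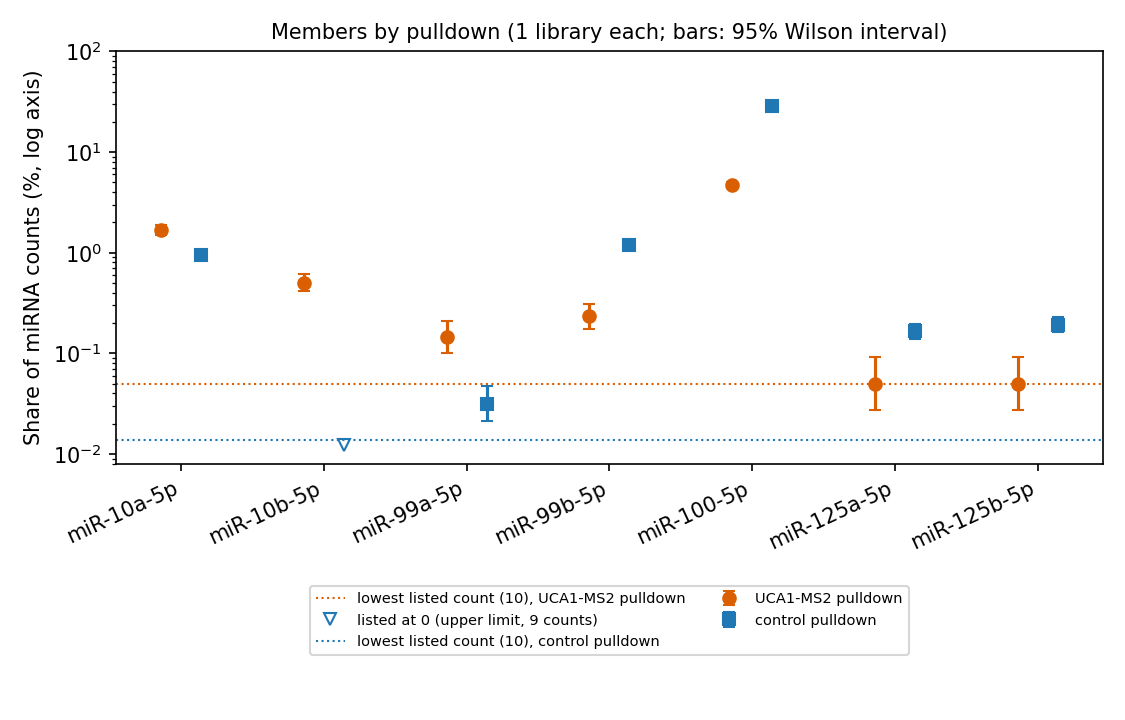
Share of the miRNA counts (%, log axis) of the 7 members in the UCA1-MS2 library (circles) and the control library (squares), 1 library each, with 95% Wilson intervals; the open triangle is the limit of 9 counts for a listed 0, and dotted lines mark the lowest listed count of 10. miR-100-5p lay at 4.74% and 29.03%, and both miR-125 miRNAs lay on the lowest listed count of the UCA1-MS2 library.

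miR-100-5p, whose gene lies in the same host gene as MIRLET7A2 and MIR125B1, was the most counted miRNA of the control library. Its counts were 949 in the UCA1-MS2 library, 4.74% of the pool (4.45 to 5.04%), and 21067 in the control library, 29.03% (28.7 to 29.4%). Its rank among the listed miRNAs was thus 4 in the first and 1 in the second library. The share was 6.13-fold lower (5.74 to 6.55), and 76.5 against 1632 RPM was 21.3-fold lower (20.0 to 22.8). Its log2 ratio, -2.62 on the share scale, was the lowest of the 90 miRNAs with counts in both libraries.

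miR-99b-5p, from the chromosome 19 cluster, followed closely. It had 47 counts, 0.235% (0.176 to 0.312%), against 861, 1.19% (1.11 to 1.27%). The share was 5.06-fold lower (3.77 to 6.94) and the RPM value, 3.79 against 66.7, was 17.6-fold lower (13.1 to 24.1). Its share log2 ratio, -2.34, ranked 3 from the lowest of the 90. miR-99b-5p and miR-100-5p, made from different chromosomes, differed in proportion by less than counting error. miR-99b-5p was 4.95% of the miR-100-5p counts in the UCA1-MS2 library and 4.09% in the control library, a ratio of 1.21 whose exact 95% interval ran from 0.877 to 1.64.

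miR-99a-5p went the other way from both of its relatives. It had 29 counts, 0.145% (0.101 to 0.208%), in the UCA1-MS2 library and 23, 0.0317% (0.0211 to 0.0476%), in the control library. Its share was 4.57-fold higher (2.55 to 8.27). On the RPM scale it was at 2.34 and 1.78, a ratio of 1.31 whose interval, 0.733 to 2.38, included 1. Against miR-100-5p, from which it differs by the single base given above, it was 3.06% of the miR-100-5p counts in the UCA1-MS2 library and 0.109% in the control library, a 27.99-fold difference (15.6 to 50.8). Against miR-99b-5p the difference was 23.1-fold (11.8 to 45.0). Over the 4005 pairs of miRNAs with counts in both libraries, the median absolute log2 difference was 1.53, and 4.04% of the pairs lay at least as far apart as miR-99a-5p and miR-100-5p, at 4.81.

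The miR-10 miRNAs also parted from each other. miR-10a-5p had 337 counts, 1.68% (1.51 to 1.87%), against 688, 0.948% (0.880 to 1.02%). Its share was 1.77-fold higher (1.55 to 2.02), under the 2-fold threshold, whereas its RPM value, 27.2 against 53.3, was 1.96-fold lower (1.72 to 2.24), so that its direction depended on the scale. Its ranks were 13 and 16. For miR-10b-5p, 101 counts (0.504%, 0.415 to 0.612%; 8.14 RPM; rank 26) stood against a listed 0 in the control library, which puts its share at least 40.6-fold and its RPM at least 11.7-fold higher. Set against miR-10a-5p, it amounted to 29.97% of those counts in the UCA1-MS2 library, and in the control library to at most 1.31%, a difference of at least 22.9-fold between the pulldowns. Apart from the sequencing, the paper reports RT-qPCR of UCA1 pulldown material in independent experiments, which also found miR-10b-5p bound to UCA1.

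The miR-125 miRNAs were close to the limit of the counts. miR-125a-5p and miR-125b-5p each had 10 counts in the UCA1-MS2 library, the lowest count listed, which is 0.0499% of the miRNA counts (0.0271 to 0.0919%) and 0.806 RPM. In the control library miR-125a-5p had 120 counts (0.165%, 9.29 RPM) and miR-125b-5p had 140 (0.193%, 10.8 RPM). The share of miR-125a-5p was 3.31-fold lower, with an interval of 1.74 to 7.09 that reached below 2-fold, and that of miR-125b-5p 3.87-fold lower (2.04 to 8.24). On the RPM scale they were 11.5-fold (6.06 to 24.7) and 13.5-fold (7.10 to 28.7) lower. The proportion of the first to the second was 1.0 and 0.857 in the 2 libraries, a ratio of 1.17. Its interval was wide, 0.420 to 3.24, so the counts do not settle whether the 2 miRNAs differed in either direction within that range.

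**Figure D2:**
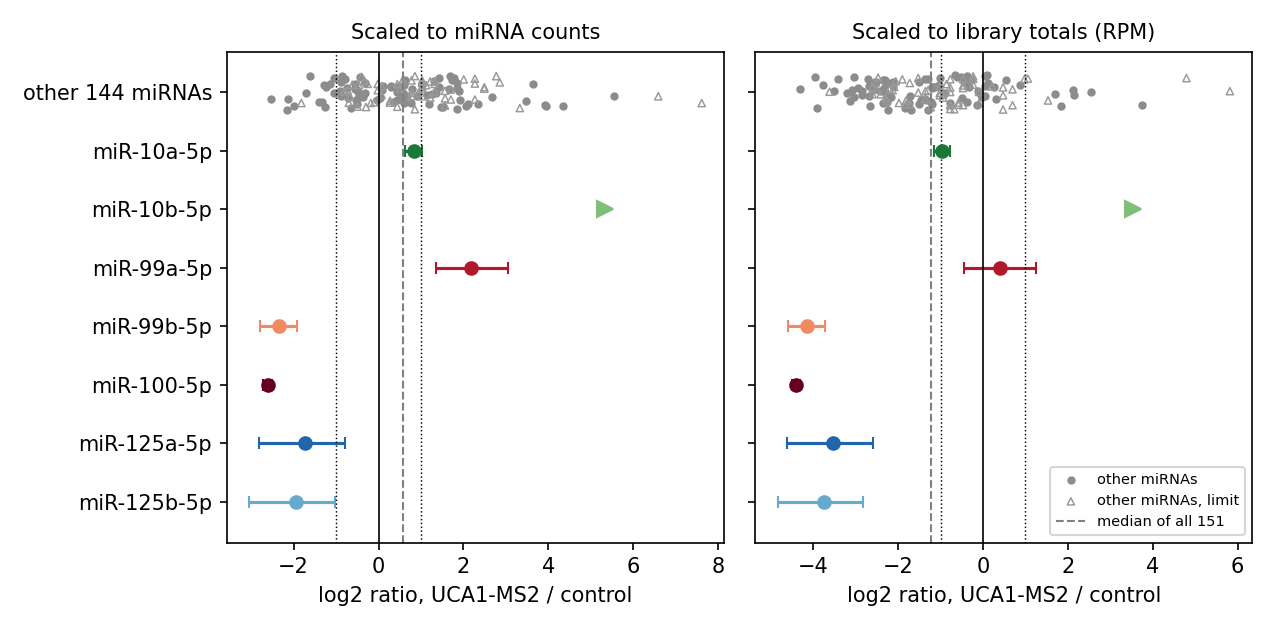
Log2 ratio of the UCA1-MS2 over the control library for the 7 members (exact 95% intervals; the triangle is a lower limit) and the other 144 miRNAs with counts (grey; open triangles are limits), scaled to the miRNA counts on the left and to the library totals on the right. Dotted lines mark 2-fold and the dashed line the median, 0.58 and -1.22; 4 members lie at the low end on both scales, and miR-10a-5p changes side.

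Within the summed counts of the members, the make-up shifted toward the miR-10 miRNAs. miR-100-5p was 64.0% of the member counts in the UCA1-MS2 library (61.5 to 66.4%) and 92.0% in the control library (91.6 to 92.3%). miR-10a-5p was 22.7% (20.7 to 24.9%) and 3.0045% (2.79 to 3.23%), and miR-10b-5p was 6.81% (5.64 to 8.21%) in the UCA1-MS2 library alone. By family, the miR-10 counts were 42.7% of the miR-99/100 counts in the UCA1-MS2 library and 3.13% in the control library, a 13.6-fold difference (11.9 to 15.6). The miR-99/100 sum, 1025 and 21951 counts, and the miR-125 sum, 20 and 260 counts, stood at 51.2 to 1 and 84.4 to 1, a 1.65-fold difference whose interval, 0.985 to 2.61, included 1. The comparisons of family sums were chosen after the member values were seen.

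**Figure D3:**
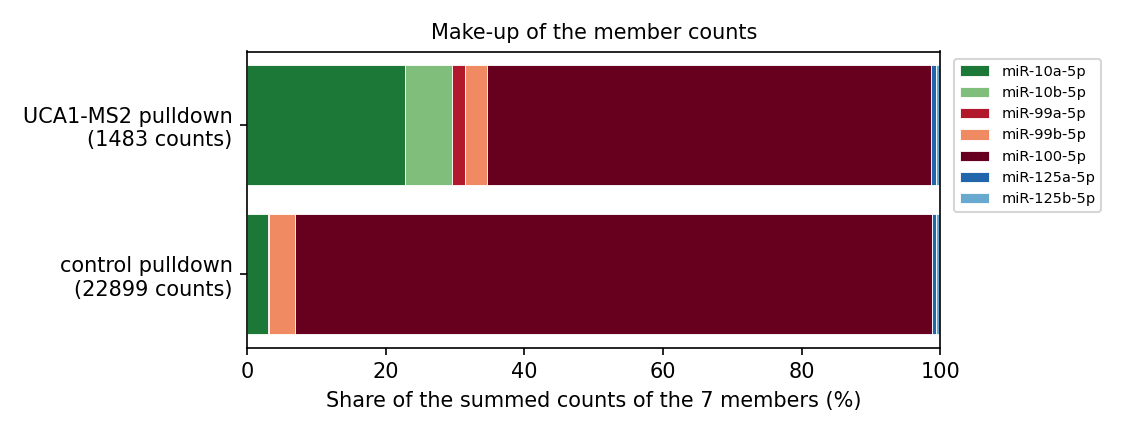
Make-up of the summed counts of the 7 members in each pulldown, as stacked bars from 0 to 100%. miR-100-5p fills 64.0% of the UCA1-MS2 bar and 92.0% of the control bar, and the miR-10 miRNAs (green) take most of the difference.

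miRNAs with genes in 1 annotated cluster did not all keep their proportions. Whether their counts came from 1 primary transcript was not tested. In the chromosome 19 cluster, miR-99b-5p and miR-125a-5p had a proportion of 4.70 and 7.17, a ratio of 0.655 (0.316 to 1.49). Their neighbour let-7e-5p, a let-7 family miRNA whose gene lies between theirs, had 19 and 95 counts. Against let-7e-5p, miR-99b-5p was 3.66-fold lower in the UCA1-MS2 library (1.94 to 6.66) and miR-125a-5p 2.40-fold lower (1.002 to 6.05), the latter with an interval that barely left out 1. In the chromosome 11 cluster, miR-100-5p and miR-125b-5p had a proportion of 94.9 and 150.5, a ratio of 0.631 (0.331 to 1.35). Against let-7a-5p, which had 533 and 4603 counts but is made from 3 genes, miR-100-5p was 2.57-fold lower (2.30 to 2.88). miR-125b-5p against let-7a-5p gave a ratio of 0.617 (0.288 to 1.18).

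In the chromosome 21 cluster, miR-99a-5p and miR-125b-5p had a proportion of 2.9 in the UCA1-MS2 library and 0.164 in the control library, a 17.7-fold difference (7.09 to 45.5), although the miR-125b-5p counts also hold those from chromosome 11. let-7c-5p, the third miRNA of the cluster, was listed at 0 in the UCA1-MS2 library and had 16 counts in the control library. miR-99a-5p against let-7c-5p was thus higher by at least 2.24-fold, and miR-125b-5p against let-7c-5p could not be placed. Of the 14 pairs of relatives and cluster mates compared, 11 had counts in both libraries, and for 6 of these the interval left out equal proportions. The pairs share members, so they are not independent. How many of all 4005 pairs have such an interval was not computed, and their median absolute log2 difference was 1.53. Of the 6 pairs, miR-100-5p against let-7a-5p (-1.36) and miR-125a-5p against let-7e-5p (-1.26) were smaller than this in size, and the others were larger.

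**Figure D4:**
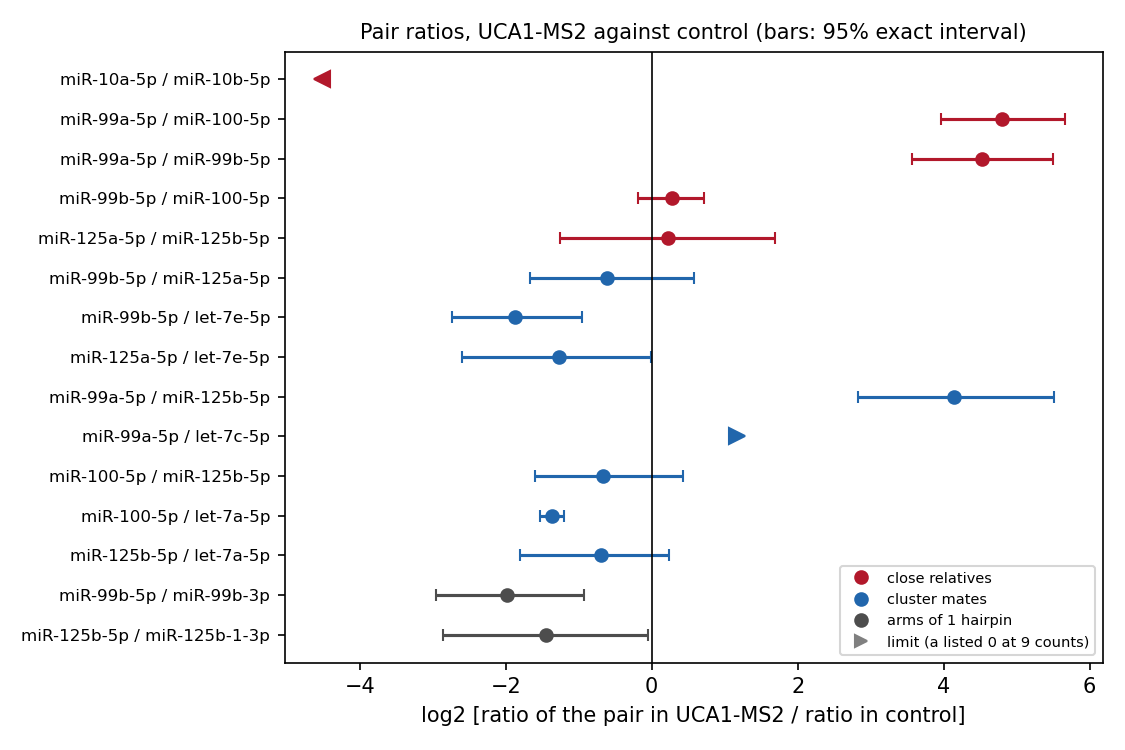
Log2 of each pair's proportion in the UCA1-MS2 library over that in the control library, for close relatives (red), cluster mates (blue) and arms of 1 hairpin (grey), with exact 95% intervals; triangles are limits against 9 counts. The 3 pairs with miR-99a-5p and an interval lie at 4.14 to 4.81, whereas miR-99b-5p / miR-100-5p and miR-125a-5p / miR-125b-5p include 0; miR-125b-5p / let-7c-5p is not drawn because its limit does not place it.

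The opposite arms of the member hairpins, usually degraded as passenger strands, were mostly below the lowest count. Of 8 such arms, 6 were listed at 0 in both libraries, those of miR-10a, miR-10b, miR-99a, miR-100, miR-125a and miR-125b-2. miR-99b-3p had 14 and 65 counts (0.0699% and 0.0896%) and miR-125b-1-3p had 13 and 67 (0.0649% and 0.0923%), and the intervals of their share ratios, 0.404 to 1.40 and 0.356 to 1.28, included 1. On the RPM scale they were 4.46-fold (2.48 to 8.61) and 4.95-fold (2.71 to 9.78) lower in the UCA1-MS2 library. The guide strand miR-99b-5p was 3.36 times its own opposite arm in the UCA1-MS2 library and 13.2 times in the control library, a 3.95-fold difference (1.90 to 7.75). For miR-125b-5p against miR-125b-1-3p, the values were 0.769 and 2.09, a 2.72-fold difference (1.04 to 7.28). The arm miR-125b-1-3p is made only on chromosome 11, so counts from that gene were present in both libraries, while the chromosome 21 arm miR-125b-2-3p was listed at 0 in both. These comparisons of arms were chosen after the values were seen.

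Sequence matches to the seeds of 6 of the 7 members were searched in annotated UCA1, on its sense strand only. miR-10b-5p was left out, because the RefSeq sequences used here lack it. In the 1444-nucleotide isoform (GENCODE release 29), the 7-base complements ACAGGGT (miR-10a-5p), TACGGGT (miR-99/100) and CTCAGGG (miR-125) had 0 matches each, and they were found in 2, 0 and 0 of the 36 isoforms. Among 2476 other long noncoding transcripts of 1156 to 1732 nucleotides, 10.9%, 1.33% and 15.2% held them. The cloned UCA1-MS2 sequence itself was not used here, and pairing outside the seed was not searched.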

How the data were processed

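Small RNA from 1 UCA1-MS2 pulldown and 1 control pulldown was sequenced by a company after an Illumina protocol. The submitters' processing notes name bcl2fastq and BWA; versions, build, miRNA release and strand are not given in the sources used here. The authors deposited read counts per mature miRNA name, in which no nonzero count is under 10, and RPM values scaled to a library total. A table of the whole series repeats the RPM values in all 2588 rows and adds the authors' log2 fold changes and p-values, which were not used.

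Here, shares of the miRNA counts were given 95% Wilson intervals. Ratios between libraries have exact binomial intervals, and ratios of 2 counts between libraries exact conditional odds ratio intervals (scipy 1.17.1, pandas 2.3.3, Python 3.11.15). PCR copies were not told apart by molecular identifiers, so reads are not independent molecules. A listed 0 was taken as 9 counts, and a fold against it is a limit given without an interval for counting error. The 151 miRNAs with at least 10 counts over both libraries formed the background, 7 of 7 members included, and a call is a change of at least 2-fold. With 1 library per condition, edgeR and DESeq2 tests could not be fitted and no p-value is given; edgeR 4.0.16 and DESeq2 1.42.0 (R 4.3.3) gave normalization alternatives only. The members and lists were chosen with earlier results of these data known. Besides the members, the text names their opposite arms, cluster mates, other HOX cluster miRNAs, markers of cell types, the 5 miRNAs with the most counts per library and the 5 with at least 100 counts nearest in log2 ratio to the summed members. Sequences are from RefSeq (GRCh38.p14), and genes and transcripts from GENCODE release 29 (GRCh38).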

Additional observations from a re-analysis of the deposited data

How the results depend on the processing

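No paired analysis was possible because a condition is 1 library only, and no replicate could be left out. Scaled to library totals, the median log2 ratio of all miRNAs shifted by -1.80, 11 miRNAs and 1 member were higher and 86 miRNAs were lower (11.3% of calls higher against 75.9%, from 60 and 19), also when limits were counted only in the direction they bound, an alternative added after the data were seen. The log2 ratio of the summed members, -2.09, became -3.89 with these totals, -2.27 with TMM (68.9% of calls higher; median shift -0.18), -2.47 with DESeq2 size factors (32 lower, 56.2% higher; -0.38), -2.53 with library sizes without the 7 members (39 higher, 33 lower, 54.2%; -0.44) and -2.44 with them less miR-100-5p and miR-21-5p (31 lower, 56.9%; -0.35).

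Adding 0.5 counts gave 42 higher and 67 lower (38.5% higher), and 5 counts for a listed 0 gave 32 lower (56.8%). With at least 50 counts 24 were higher, because fewer miRNAs remained. At 4-fold, 23 were higher and 5 lower, and 2 members, miR-100-5p and miR-99b-5p, were still lower. The call counts that required the counting interval to leave out 1 were 47 and 19. Removing the count minimum changed nothing, because no count under 10 is listed. Over 8 scalings and values for a listed 0, miR-100-5p ran from -4.41 to -2.62 on the log2 scale, miR-99b-5p from -4.14 to -2.33, miR-125b-5p from -3.75 to -1.93, miR-125a-5p from -3.53 to -1.71 and miR-99a-5p from 0.39 to 2.19. miR-10a-5p was above 0 in 7 of the 8 and reversed to -0.97 with the authors' totals. miR-10b-5p ran from 3.55 to 8.87, the lowest with the authors' totals and the highest with 0.5 counts added, which took the place of 9 counts for its listed 0. The proportion of miR-125b-5p to let-7c-5p, a limit of -2.98, reversed to 1.30 with 0.5 counts added; let-7c-5p was listed at 0 in the UCA1-MS2 library. Depth limits the miR-125 values, since both members stood at the lowest listed count there, and the miR-10b-5p value, which is a limit.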

Other observations

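The other miRNAs of the HOX clusters gave no counts. miR-196a-5p, miR-196b-5p, miR-615-3p and their opposite arms, 6 names in all, were listed at 0 in both libraries, while miR-10a-5p, from the HOXB cluster, had 337 and 688 counts. A 0 here allows up to 9 counts in each library. The opposite arms of the let-7 cluster mates, let-7e-3p, let-7c-3p and let-7a-2-3p, were also listed at 0 in both.

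The 5 miRNAs whose share ratio was nearest to that of the summed members, of 53 others with at least 100 counts over the libraries and counts in both, were miR-30a-3p (30 and 473 counts, log2 ratio -2.12), miR-28-3p (11 and 179, -2.17), miR-92b-3p (10 and 143, -1.98), miR-224-5p (18 and 213, -1.71) and miR-4497 (33 and 687, -2.52). The likeness is over 2 libraries only. Among the RefSeq sequences used here, miR-4319, which has the miR-125 seed, was the 1 other mature miRNA with a seed of the 6 members searched. It was listed at 0 in both libraries. These sequences lack miR-10b-5p, so its seed was not compared with that of miR-10a-5p.

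The most counted miRNAs of the UCA1-MS2 pulldown were miR-21-5p (24.0% of the miRNA counts), miR-7641 (19.9%), let-7i-5p (5.90%), miR-100-5p (4.74%) and miR-3135b (3.46%). Those of the control pulldown were miR-100-5p (29.03%), miR-21-5p (15.1%), let-7f-5p (6.52%), let-7a-5p (6.34%) and miR-3135b (5.71%).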
